A study of Mus musculus with 9 samples.

Results

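The liver releases proteins that act on distant organs, often called hepatokines, together with secreted proteins whose production rises under cellular stress. The 9 genes described here encode such factors: Fgf21, Gdf15, Angptl4, Angptl8, Fetub, Ahsg, Lect2, Inhbe and Inhba. A gene was taken as measured where a non-control array probe carried a RefSeq accession of that gene. Each of the 9 genes had 1 probe with 1 spot, so that they make up 9 of 55681 probes and 9 of the 20972 genes named on the array, and all 9 were among the 26277 probes tested.

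Gene expression was measured on 1-colour Agilent arrays in liver from 9 male mice, 20 weeks old, with 3 mice and arrays in each of 3 groups. STAM mice were made from C57B/6J mice by a small dose of streptozotocin, a toxin of pancreatic β cells, given at birth, and by a high-fat diet from weaning. STAM-NON mice received no further treatment, and STAM-INS mice received insulin glargine under the skin. Normal mice were lean and had neither streptozotocin nor the high-fat diet. Normal and STAM mice thus differed in both, and the separate parts of streptozotocin and of diet cannot be told apart. STAM mice develop fatty liver disease, fibrosis and liver tumours, and whether the sampled pieces held tumour is not given in the sources used here, nor is the feeding state of the mice at sampling. Feeding state bears on these genes because several of them are known to follow meals.

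As background, Fgf21 is a hormone made mainly by hepatocytes in fasting, under control of the fatty acid receptor PPARα, and in amino acid or organelle stress, under control of the transcription factor ATF4. Angptl4 and Angptl8 encode inhibitors of lipoprotein lipase, the enzyme that releases fatty acids from circulating triglyceride; Angptl4 is known as a PPARα target and Angptl8 as a gene induced by feeding and insulin. Gdf15 encodes a stress hormone that acts on the hindbrain, Fetub and Ahsg encode the plasma proteins fetuin B and fetuin A, Lect2 encodes a chemotactic plasma protein, and Inhbe and Inhba encode subunits of the activins, ligands of the transforming growth factor β family.

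The promoters of 8 of the 9 genes were found in the RefSeq table of the assembly GRCm38.p6, in 10 windows, and Angptl4 was not among them. The 250 bases before the start of each window's transcript were searched on both strands for 4 motifs. The core of the C/EBP-ATF response element, the site of ATF4 in stress-induced genes (TGATGNAA), was in 3 of the 10 windows and in 3.45% of all 32851 windows of this length. The 3 genes were Fgf21, Angptl8 and Inhbe. Their windows are shown because they share this element, and that of Lect2 because it changed in expression and held none of the 4 motifs. Sequences run 5′ to 3′ on the strand of the gene and end at the base before the start. Capitals mark the C/EBP-ATF core and, in Fgf21, the E-box CACGTG further on. The windows lie at chr7:45615491-45615740 (minus strand, Fgf21), chr9:21835260-21835509 (plus strand, Angptl8), chr10:127351849-127352098 (minus strand, Inhbe) and chr13:56548539-56548788 (minus strand, Lect2).
Fgf21: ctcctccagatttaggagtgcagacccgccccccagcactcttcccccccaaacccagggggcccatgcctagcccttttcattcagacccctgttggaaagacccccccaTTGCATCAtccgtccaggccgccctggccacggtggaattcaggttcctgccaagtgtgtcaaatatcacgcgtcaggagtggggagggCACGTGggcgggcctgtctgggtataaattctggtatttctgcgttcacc
Angptl8: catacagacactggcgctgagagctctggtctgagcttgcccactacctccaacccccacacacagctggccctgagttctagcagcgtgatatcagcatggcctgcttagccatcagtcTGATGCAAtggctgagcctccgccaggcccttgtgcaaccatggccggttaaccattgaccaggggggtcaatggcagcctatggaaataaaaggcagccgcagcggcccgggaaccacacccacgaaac
Inhbe: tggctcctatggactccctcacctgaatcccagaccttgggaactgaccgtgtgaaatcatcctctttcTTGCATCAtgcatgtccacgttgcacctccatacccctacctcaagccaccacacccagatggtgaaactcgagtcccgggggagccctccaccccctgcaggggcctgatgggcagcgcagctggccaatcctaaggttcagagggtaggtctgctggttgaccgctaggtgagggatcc
Lect2: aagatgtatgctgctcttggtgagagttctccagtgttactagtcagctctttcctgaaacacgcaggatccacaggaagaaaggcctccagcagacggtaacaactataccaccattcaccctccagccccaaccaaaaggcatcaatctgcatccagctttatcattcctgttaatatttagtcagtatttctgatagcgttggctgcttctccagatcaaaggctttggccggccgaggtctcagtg

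The core ended 131 bases before the start in Fgf21, 122 in Angptl8 and 173 in Inhbe, and all 3 genes held the same 8 letters, TGATGCAA, read on the gene's strand in Angptl8 and on the opposite strand in Fgf21 and Inhbe. The E-box was in 2 of the 10 windows, of Fgf21 and Gdf15, and in 6.02% of all windows. The core of FOXO sites (GTAAACA) was in 1 window, of Fetub, and in 3.17% of all. The peroxisome proliferator response element, the site of PPARα, was searched only as the exact direct repeat of AGGTCA with 1 base between. It was in none of the 10 windows and in 0.0335% of all, 11 windows. With so rare a form its absence says little, and looser forms of the site were not searched. No motif overlapped another in these windows. A match describes the letters and does not show that a factor binds there.

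Between 46.2% and 65.0% of non-control spots were well above background per array, and the highest shares were on STAM-NON replicates 1 and 3 and STAM-INS replicate 1. All Normal arrays were on 1 slide and all STAM arrays on the other, so slide and the difference from Normal cannot be told apart. On the STAM slide, the 3 STAM-NON arrays and STAM-INS replicate 1 were in row 1, and STAM-INS replicates 2 and 3 were in row 2, as were the Normal arrays on theirs. The hepatocyte markers, such as Alb and Hnf4a, were well above background on every array, 8 of 8, as the labelled tissue calls for. Nothing in the labels ties replicate numbers to litters or days, so p-values measure the spread between these mice and arrays.

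The unit is the centred log2 signal, the log2 processed signal of a spot from which its array's 75th percentile was subtracted, and a difference of 1 is a 2-fold change. Levels of different probes cannot be compared. Differences are reported relative to the scaling. The median difference over all tested probes was -0.13 for STAM-NON minus Normal, and it was 0.18 with the E1A spike-in RNAs as the centre and -0.29 with the median spot. In STAM-NON 1655 probes were called higher than in Normal and 2565 lower, which became 2733 higher and 453 lower with spike-in centring, 2080 and 1064 when the percentile was taken over probes detected on all arrays, 1539 and 1425 with quantile normalisation, and 1313 and 3387 with normexp background correction. In STAM-INS 1356 were called higher than in Normal and 2294 lower, which became 1501 and 710 with spike-in centring and 1679 and 1298 when only detected probes set the percentile. Between the STAM groups, STAM-INS had 3 higher and 21 lower, and 5 and 12 with normexp correction.

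All 9 genes were well above background on all 9 arrays. Fgf21 was higher and Lect2 lower in STAM-NON than in Normal, Fgf21 was higher and Angptl4 lower in STAM-INS than in Normal, and none of the 9 passed the threshold between STAM-INS and STAM-NON. The threshold was a limma adjusted p of 0.05 over all tested probes. In STAM-NON against Normal, 2 of 9 genes passed, beside 16.1% of all tested probes. The 1 higher gene stands beside 6.30% of probes called higher, and the 1 lower gene beside 9.76% called lower. The arrays of STAM-NON and Normal did not overlap for 4 of 9 genes, beside 41.2% of probes. In STAM-INS against Normal, 2 of 9 passed beside 13.9%, with 1 higher beside 5.16%, 1 lower beside 8.73%, and 4 not overlapping beside 44.0%. As a group the 9 genes were thus called and separated about as often as probes in general. In STAM-INS against STAM-NON, limma called 0 of 9 beside 0.0913%, and 0 of 9 did not overlap beside 12.2%. There 2 of 9 had an unadjusted limma p under 0.05, beside 2308 of all 26277 tested probes. The comparisons of each STAM group with Normal share the Normal arrays.

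**Figure D1:**
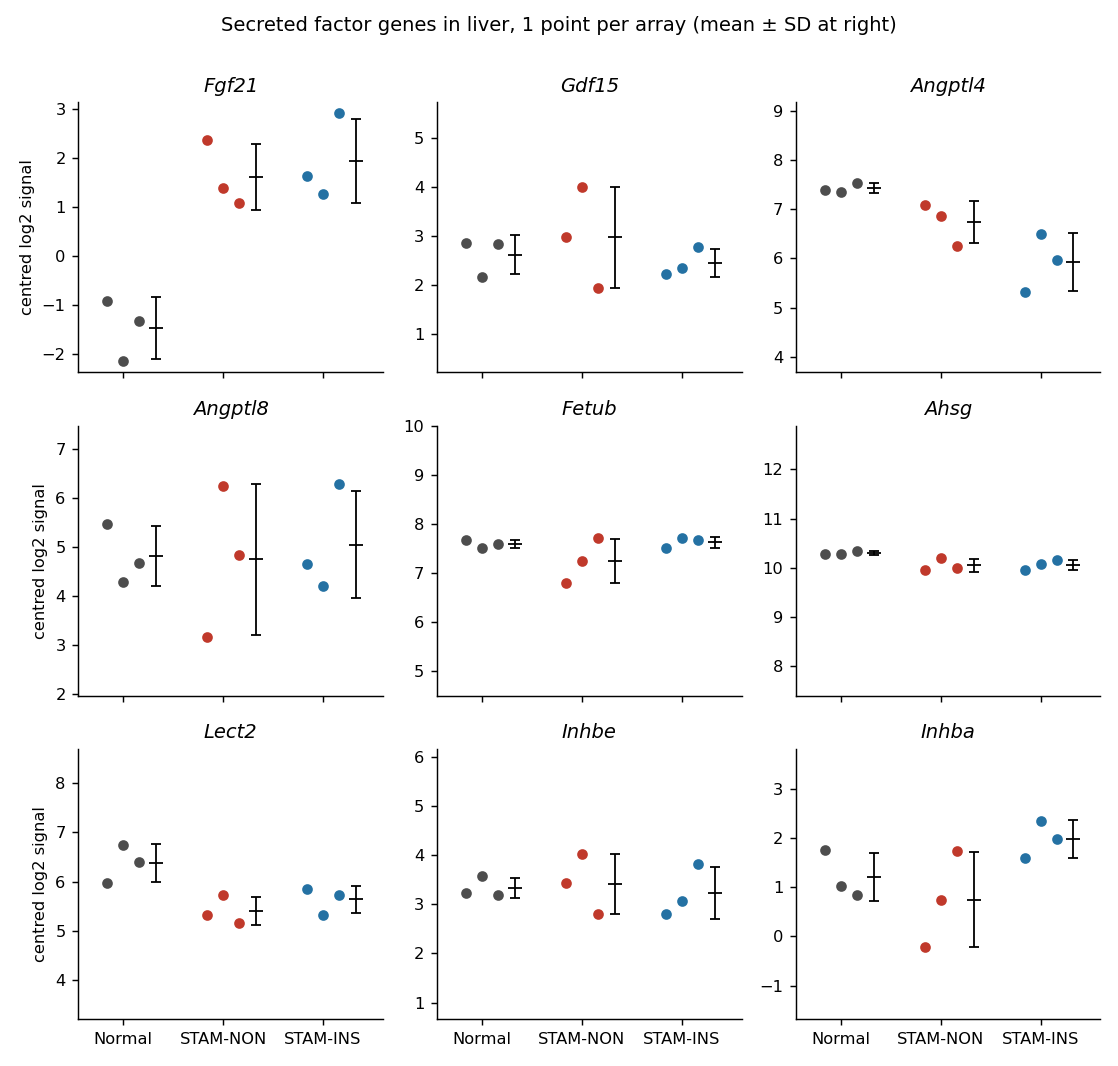
Centred log2 signal of the 9 genes (y axis; each panel spans the same number of log2 units) in Normal, STAM-NON and STAM-INS liver (x axis), with 1 point per array in order of replicate number and the mean ± SD of 3 arrays at the right of each group. Fgf21 lies between -2.14 and -0.91 in Normal and between 1.08 and 2.91 in the 6 STAM arrays, while Angptl8 spans 3.17 to 6.25 within STAM-NON alone.

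Fgf21 had the largest difference from Normal of the 9 genes in both STAM groups. Its centred log2 signal was -0.91, -2.14 and -1.32 in Normal replicates 1 to 3. It was 2.36, 1.39 and 1.08 in STAM-NON and 1.64, 1.27 and 2.91 in STAM-INS. Every STAM array was above every Normal array, and the STAM groups overlapped. In STAM-NON Fgf21 was higher than in Normal by 3.07 (SE 0.51, 95% interval 1.90 to 4.23, limma adjusted p 0.0125), which is 8.39-fold and 3.20 above the median of all probes. In STAM-INS it was higher than in Normal by 3.40 (SE 0.51, 95% interval 2.23 to 4.56, limma adjusted p 0.00676), which is 10.5-fold. Between STAM-INS and STAM-NON the difference was 0.33 with a 95% interval of -0.83 to 1.49 (limma adjusted p 0.890), which holds both a lower and a higher level under insulin. In a piece of liver, fewer cells of a type and less RNA per cell cannot be told apart.

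The difference of Fgf21 from Normal in STAM-INS passed in all 22 alternative settings, and that in STAM-NON in 19 of 22. The 3 exceptions for STAM-NON were the slide row as a block (3.52, limma adjusted p 0.193), no filter on dim probes (3.07, limma adjusted p 0.0578) and leaving out the 3 arrays with the most spots above background (2.84, limma adjusted p 0.140).

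FGF21 acts through FGF receptors, not all of them equally, with the coreceptor β-Klotho, the product of Klb. Of the 5 genes tested, those of the FGF receptors and Klb, 0 passed in any of the 3 comparisons by limma. Beside them stand 16.1%, 0.0913% and 13.9% of all probes. The largest differences between STAM-NON and Normal were in Fgfr3, at -0.47, and Klb, at -0.45, with limma adjusted p of 0.0662 and 0.140. Between STAM-INS and Normal the largest were in Fgfr2, at -0.34, and Fgfr3, at -0.28. Under insulin Fgfr4, the main hepatocyte FGF receptor, differed by 0.70 (limma adjusted p 0.532). Fgfr1 had 3 tested probes, and 1 of them, other than the brightest used here, passed against Normal in both STAM groups.

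Of the ATF4 stress response, to which Fgf21 is known to belong, 5 of 14 tested genes rose and 0 fell in STAM-NON against Normal, beside 6.30% and 9.76% of all probes. The median difference was 1.11 beside -0.13 over all probes, and 3 of the 14 had a lower mean in STAM-NON. The count was between 5 and 6 under the 4 other scalings and normexp correction, 4 without the 3 arrays with the most spots above background, and 0 with the slide row as a block. Over all probes, 670 were called higher without these arrays and 9 with the row block, beside 1655 in the setting reported. Psat1, an enzyme of serine synthesis, exceeded its Normal level at least 14.02-fold in STAM-NON and at least 8.72-fold in STAM-INS (limma adjusted p 0.00402 and 0.00387), since none of the Normal arrays measured it well above background. In such bounds the level of an undetected group is taken on each array as the lowest signal of any detected probe, or as the probe's own signal where that is higher. Asns, asparagine synthetase, rose from -0.72 ± 0.09 in Normal to 1.82 ± 0.29 in STAM-NON and 2.09 ± 0.80 in STAM-INS (SD, n = 3 each), by 2.54 and 2.81 (limma adjusted p 0.00818 and 0.00381). Atf3, a stress transcription factor, rose by 1.98 and 1.64 in the same comparisons. In STAM-INS against Normal 4 of 14 rose and 0 fell, beside 5.16% and 8.73% of all probes, and 5 of the 14 had a lower mean in STAM-INS. Under insulin 0 of 14 passed by limma, beside 0.0913% of all probes. The largest differences there were in Nupr1, at -1.15, and Vldlr, at -1.14, with limma adjusted p of 0.732 and 0.515.

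Gdf15 was not called in any comparison. Its signal was 2.86, 2.17 and 2.85 in Normal, 2.98, 4.003 and 1.95 in STAM-NON and 2.23, 2.36 and 2.77 in STAM-INS. The highest and the lowest of the 9 arrays were both in STAM-NON. The difference between STAM-NON and Normal was 0.35 (95% interval -0.70 to 1.41, limma adjusted p 0.605), and that between STAM-INS and STAM-NON was -0.52 (95% interval -1.58 to 0.53, limma adjusted p 0.791). STAM-INS minus Normal was -0.17 (limma adjusted p 0.821). In none of the 22 alternatives did Gdf15 pass. Gdf15 is also known as a target of p53. Of 10 other p53 targets, 5 rose in STAM-NON and 4 in STAM-INS against Normal, beside 6.30% and 5.16% of all probes, and 0 fell in either. The list medians were 0.77 and 0.68, and 2 of the 10 had a lower mean in STAM-NON than in Normal. Under the 4 other scalings the count was 4 to 8 in STAM-NON and 2 to 6 in STAM-INS. With the slide row as a block 2 of 10 passed in STAM-NON against Normal, and without the 3 arrays 2 of 10 passed. Over all probes, 9 were called higher with that block and 670 without those arrays. Cdkn1a, an inhibitor of the cell cycle, had a centred log2 signal of -3.40 ± 0.12 in Normal livers, 1.59 ± 0.38 in those of STAM-NON and 1.91 ± 0.77 in those of STAM-INS (SD, n = 3 each; limma adjusted p 0.00127 and 0.00106 against Normal). Phlda3, a brake on Akt signalling, rose by 3.30 and 2.78. Gtse1, a mitotic regulator of p53, was measured by none of the Normal arrays, all 3 STAM-NON arrays and 2 of 3 STAM-INS arrays, with levels at least 1.39-fold and 1.14-fold above the Normal bound (limma adjusted p 0.0148 and 0.0258). Under insulin 0 of 10 passed by limma, beside 0.0913% of all probes, and the largest differences were in Phlda3, at -0.52, and Cdkn1a, at 0.31.

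**Figure D2:**
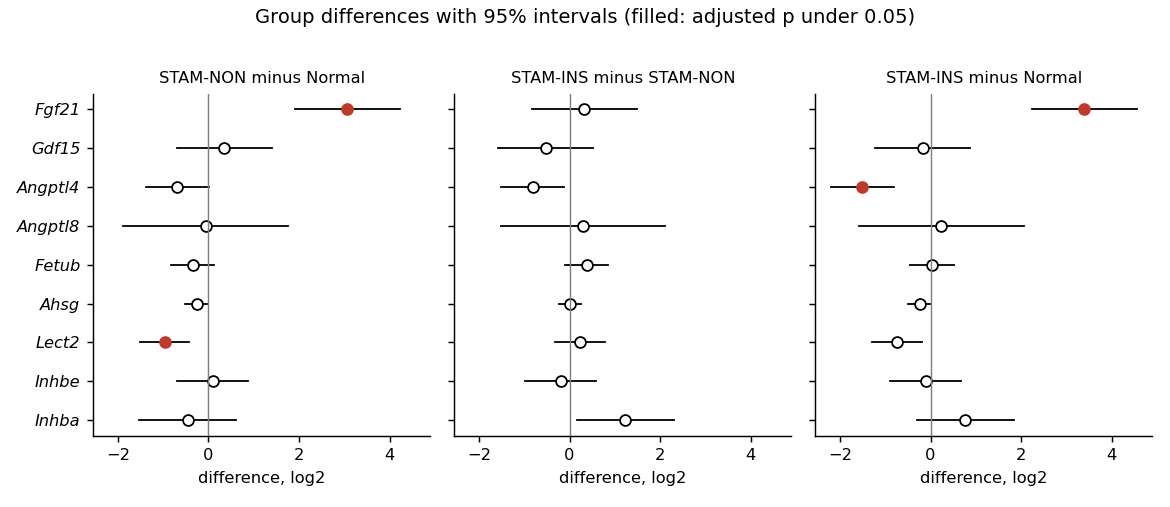
Difference between group means (x axis, log2) of the 9 genes (y axis) in the 3 comparisons, with 95% intervals from limma. Filled points passed a limma adjusted p of 0.05 over all tested probes: Fgf21 at 3.07 and Lect2 at -0.97 in STAM-NON minus Normal, Fgf21 at 3.40 and Angptl4 at -1.51 in STAM-INS minus Normal, and no gene in STAM-INS minus STAM-NON.

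Angptl4 was lower in STAM-INS than in Normal. Its signal was 7.39, 7.36 and 7.54 in Normal. It was 7.10, 6.87 and 6.26 in STAM-NON and 5.32, 6.49 and 5.96 in STAM-INS. The Normal arrays lay within 0.18 of each other and above all STAM arrays, and the STAM groups overlapped through STAM-NON replicate 3. STAM-INS minus Normal was -1.51 (SE 0.31, 95% interval -2.21 to -0.80, limma adjusted p 0.0190), which is 2.84-fold lower. The mean of STAM-NON lay between the other groups, at -0.69 from Normal (95% interval -1.39 to 0.01, limma adjusted p 0.146) and with STAM-INS at -0.82 from it (95% interval -1.52 to -0.12, unadjusted p 0.0274, limma adjusted p 0.522). With the slide row as a block the difference between STAM-NON and Normal was 0.22, of the opposite sign. Row was separated from group there through the STAM-INS arrays alone, and of these only replicate 1, the lowest at 5.32, was in row 1. The call in STAM-INS against Normal passed in 17 of 22 alternatives. It was lost with no filter on dim probes (limma adjusted p 0.0828) and on leaving out STAM-INS replicate 3 (-1.52, 0.0527) or Normal replicate 1 (-1.53, 0.0578), 2 (-1.54, 0.0543) or 3 (-1.45, 0.0674).

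Angptl8 varied more between mice of 1 group than nearly any other probe. Its signal was 5.48, 4.29 and 4.67 in Normal, 3.17, 6.25 and 4.84 in STAM-NON and 4.66, 4.21 and 6.28 in STAM-INS. STAM-NON held both the lowest array of all and one close to the highest, and the 9 arrays spanned 8.64-fold. The residual SD was 1.15, larger than that of 99.0% of tested probes, whose median was 0.22. The 95% interval of STAM-INS minus STAM-NON was -1.52 to 2.12 around 0.30 (limma adjusted p 0.940), and that of STAM-NON minus Normal was -1.88 to 1.76 around -0.06 (limma adjusted p 0.963). STAM-INS minus Normal was 0.24 (limma adjusted p 0.861). With 3 arrays a group, these intervals were wide and held both lower and higher levels.

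Around lipoprotein lipase, the target of both proteins, 1 of 8 genes rose and 2 fell in STAM-NON against Normal, beside 6.30% and 9.76% of all probes. Lpl, lipoprotein lipase itself, rose from 1.27 ± 0.22 to 3.24 ± 0.76 (SD, n = 3 each; limma adjusted p 0.0129) and was 2.87 ± 0.14 in STAM-INS (limma adjusted p 0.0198 against Normal). Lipc, hepatic lipase, fell by 0.98 in STAM-NON and by 0.52 in STAM-INS (limma adjusted p 0.00856 and 0.0444). Lmf1, which matures both lipases, fell by 0.55 in STAM-NON (limma adjusted p 0.0376). The count of falling genes was 1 with spike-in centring, centring on the median, the percentile over detected probes or quantile normalisation. Under these Lipc was not called in STAM-INS. No gene of the list passed in STAM-NON with the slide row as a block or without the 3 arrays. Over all probes, 15 were called there with that block and 850 without those arrays. Under insulin 0 of 8 passed by limma, beside 0.0913% of all probes, with Gpihbp1 at -0.61 and Lipc at 0.46 as the largest differences.

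Targets of PPARα, the receptor that induces Angptl4 and Fgf21 in fasting, were not called higher than in Normal in either STAM group in the setting reported. Of 15 tested, 0 passed in STAM-NON against Normal, beside 16.1% of all probes, with Pdk4 at 1.49 and Acaa1b at -0.73 as the largest differences (limma adjusted p 0.143 and 0.348). In STAM-INS against Normal 1 of 15 passed beside 13.9%, the receptor gene Ppara itself, which fell by 0.86 (limma adjusted p 0.0229), and both of its other tested probes passed too. It was not called with spike-in centring or with the slide row as a block. Under insulin 13 of 15 had a lower mean, and the median was -0.40 beside 0.03 over all probes. By limma 0 passed, beside 0.0913% of all probes. Without the 3 arrays with the most spots above background 1 was called lower, beside 495 of all probes. In the setting reported the largest differences were in Acot1, at -1.17, and Cyp4a10, at -1.09 (limma adjusted p 0.627 and 0.621).

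Of 13 genes insulin is known to induce for fatty acid synthesis, as it does Angptl8, 12 had higher means in STAM-INS than in STAM-NON. Their median difference was 0.51 beside 0.03 over all probes, and 0 passed by limma beside 0.0913% of all probes. With the slide row as a block 7 means were higher and 6 lower, with a median of 0.29. Without the 3 arrays 1 gene was called higher, beside 72 of all probes. Pnpla3 had the largest difference, 1.46, and was well above background on 2 of 3 STAM-NON arrays, followed by Scd1 at 1.31 (limma adjusted p 0.653 and 0.452). Against Normal, 1 of 13 passed in STAM-NON, beside 16.1% of all probes, namely Mlxipl, which encodes the carbohydrate sensor ChREBP and fell by 1.18 (limma adjusted p 0.00831), while its other tested probe did not pass. This call was lost with the slide row as a block, where 15 of all probes were called in STAM-NON against Normal. With spike-in centring 4 rose in STAM-NON and 1 fell, beside 2733 higher and 453 lower over all probes. In STAM-INS 5 of 13 rose against Normal and 1 fell, beside 5.16% and 8.73% of all probes. Pnpla3, a lipid droplet protein not well above background in Normal, was at least 3.46-fold higher in STAM-INS (limma adjusted p 0.0358). Fasn, fatty acid synthase, rose by 2.46 and Acly, ATP citrate lyase, by 1.14 (limma adjusted p 0.0198 and 0.0285). With centring on the median 2 rose.

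Of the FOXO1 fasting genes, a list that includes genes insulin is known to repress, 0 of 8 passed in STAM-NON against Normal beside 16.1% of all probes. Igfbp1, the insulin-sensitive binding protein of insulin-like growth factors, had the largest difference, 2.16 (limma adjusted p 0.0790), followed by Ppargc1a at 0.54. In STAM-INS Igfbp1 differed from Normal by 2.22 (limma adjusted p 0.0803), and STAM-INS minus STAM-NON was 0.06 (limma adjusted p 0.990). In STAM-INS against Normal 1 of 8 passed beside 13.9%. This was Foxo1, which fell by 0.64 (limma adjusted p 0.0326) and was not called with spike-in centring, with the percentile over detected probes, with quantile normalisation, after normexp correction, with the slide row as a block or without the 3 arrays. Under insulin 0 of 8 passed by limma, beside 0.0913% of all probes, and Sesn3, at 0.51, and Pck1, at -0.50, differed most.

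**Figure D3:**
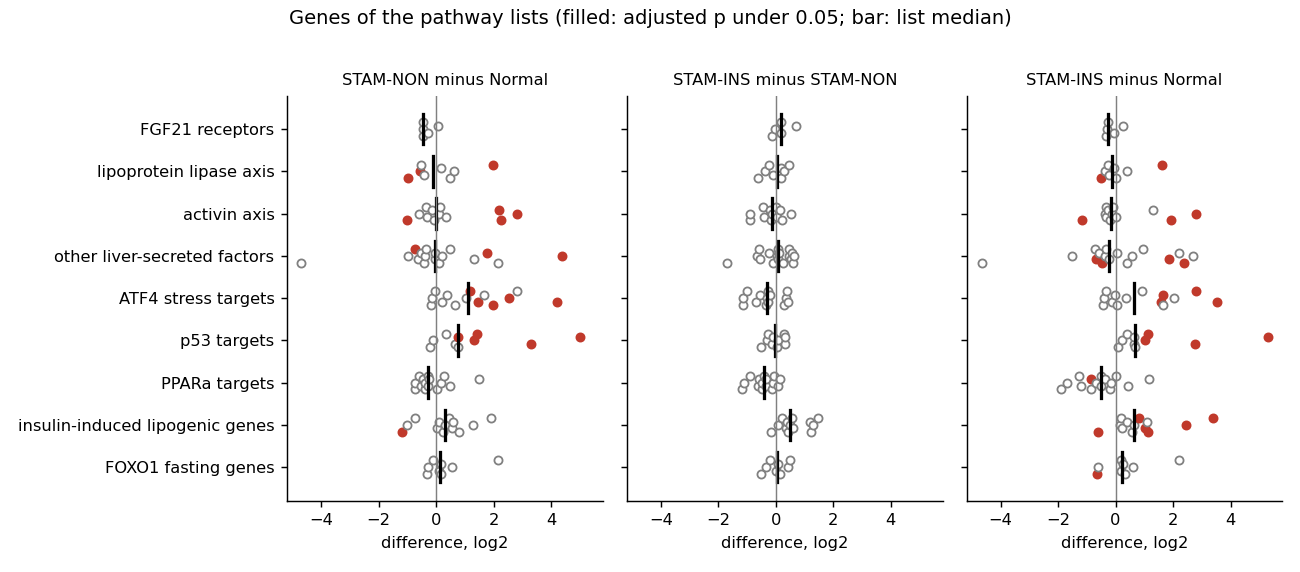
Difference between group means (x axis, log2) of each tested gene of the 9 pathway lists (y axis) in the 3 comparisons, with filled points for a limma adjusted p under 0.05 and a bar at the list median. The medians of the ATF4 and p53 lists lie at 1.11 and 0.77 in STAM-NON minus Normal, and no gene is filled in STAM-INS minus STAM-NON.

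The plasma proteins fetuin A and fetuin B were the steadiest of the 9. Ahsg, which encodes fetuin A, an inhibitor of mineral deposition and of the insulin receptor, had 10.28, 10.27 and 10.34 in Normal, 9.94, 10.19 and 9.997 in STAM-NON and 9.95, 10.07 and 10.15 in STAM-INS. Every STAM array was below every Normal array. The differences were small, at -0.25 for STAM-NON (95% interval -0.51 to -0.00, limma adjusted p 0.138) and -0.24 for STAM-INS (95% interval -0.50 to 0.01, limma adjusted p 0.168). Its residual SD was 0.097, with a smaller SD in 7.39% of tested probes. With spike-in centring STAM-NON minus Normal was 0.06, so that the direction depends on the scaling. STAM-INS minus STAM-NON was 0.01 (95% interval -0.24 to 0.26, limma adjusted p 0.987).

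Fetub, which encodes a protease inhibitor that keeps the egg coat penetrable, had 7.68, 7.52 and 7.58 in Normal and 7.50, 7.70 and 7.67 in STAM-INS. STAM-NON had 6.80, 7.24 and 7.71, on both sides of the others. The difference between STAM-NON and Normal was -0.35 (95% interval -0.82 to 0.13, limma adjusted p 0.261), and STAM-INS minus STAM-NON was 0.38 (95% interval -0.10 to 0.85, limma adjusted p 0.638). STAM-INS minus Normal was 0.03 (95% interval -0.44 to 0.51, limma adjusted p 0.930).

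Lect2 was lower in STAM-NON than in Normal. Its signal was 5.97, 6.74 and 6.40 in Normal, 5.33, 5.73 and 5.16 in STAM-NON and 5.85, 5.32 and 5.74 in STAM-INS. All STAM arrays were below all Normal arrays, the highest STAM array by 0.12, and the STAM groups overlapped. STAM-NON minus Normal was -0.97 (SE 0.24, 95% interval -1.51 to -0.42, limma adjusted p 0.0321), which is 1.96-fold lower. STAM-INS minus Normal was -0.74 (95% interval -1.28 to -0.19, limma adjusted p 0.0727), and STAM-INS minus STAM-NON was 0.23 (95% interval -0.31 to 0.78, limma adjusted p 0.819). That 1 difference passed and the other did not says nothing of insulin, for which the last interval is the test. The call in STAM-NON passed in 9 of 22 alternatives, with differences between -1.29 and -0.65. It was lost with spike-in centring (-0.66, limma adjusted p 0.102), with the percentile over detected probes (-0.80, 0.0609) and with quantile normalisation (-0.70, 0.0840). It was also lost on leaving out STAM-NON replicate 1 (-0.93, 0.0863) or 3 (-0.85, 0.0877), STAM-INS replicate 3 (-0.97, 0.0518), or Normal replicate 2 (-0.78, 0.0919) or 3 (-0.95, 0.0903). The remaining losses were with no filter on dim probes, with the arrays of the 2 groups only, with the replicate number or the slide row as a block, and without the 3 arrays with the most spots above background.

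The activin subunit genes Inhbe and Inhba were not called in any comparison. Inhbe, which encodes the βE subunit made almost only in liver, had 3.23, 3.57 and 3.19 in Normal, 3.43, 4.03 and 2.80 in STAM-NON and 2.80, 3.07 and 3.82 in STAM-INS. The 3 groups overlapped fully, and their means lay within 0.19 of each other. STAM-NON minus Normal was 0.09 (95% interval -0.69 to 0.87, limma adjusted p 0.868), STAM-INS minus STAM-NON was -0.19 (95% interval -0.97 to 0.59, limma adjusted p 0.904) and STAM-INS minus Normal was -0.10 (limma adjusted p 0.862).

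Inhba, the βA subunit, had 1.77, 1.04 and 0.84 in Normal. It had -0.22, 0.74 and 1.73 in STAM-NON and 1.59, 2.36 and 1.99 in STAM-INS. The lowest array of all was STAM-NON replicate 1, and the STAM-INS arrays overlapped with the highest array of each other group. STAM-INS minus STAM-NON was 1.23 (95% interval 0.16 to 2.30, unadjusted p 0.0292), which did not pass (limma adjusted p 0.527). STAM-NON minus Normal was -0.46 (95% interval -1.53 to 0.61, limma adjusted p 0.499), and STAM-INS minus Normal was 0.77 (95% interval -0.30 to 1.84, limma adjusted p 0.287).

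Of 12 other genes of the activin system, 3 rose and 1 fell in STAM-NON against Normal, beside 6.30% and 9.76% of all probes. Inhbb, the βB subunit, rose from -2.09 ± 0.31 to 0.72 ± 1.12, and Fst, which encodes follistatin, a secreted inhibitor of activins, rose from -0.37 ± 0.65 to 1.89 ± 0.57 (SD, n = 3 each; limma adjusted p 0.0172 and 0.0260). Fstl3, a follistatin-like inhibitor, rose by 2.19 (limma adjusted p 0.0151), with 1 of 3 Normal arrays well above background. In STAM-INS 2 of 12 rose and 1 fell, beside 5.16% and 8.73%. These were Fst, by 2.78, and Inhbb, by 1.92 (limma adjusted p 0.0132 and 0.0493), and Acvr2b, an activin receptor, which fell by 1.18 (limma adjusted p 0.0165). With spike-in centring 3 rose and 0 fell in STAM-NON, and 1 rose and 1 fell in STAM-INS under each of the 4 other scalings. In STAM-NON against Normal none passed with the slide row as a block or without the 3 arrays with the most spots above background. Over all probes, 15 were called there with that block and 850 without those arrays. Under insulin 0 of 12 passed by limma, beside 0.0913% of all probes, and Fstl3, at -0.90, and Inhbb, at -0.88, had the largest differences.

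Among 17 other liver-secreted factors, 2 rose and 1 fell in STAM-NON against Normal, beside 6.30% and 9.76% of all probes. Gpnmb, a transmembrane glycoprotein that can be shed, exceeded its Normal level at least 4.32-fold in STAM-NON (limma adjusted p 0.0186), with 0 of 3 Normal arrays and 1 of 3 STAM-INS arrays well above background. Fgl1, a fibrinogen-like hepatokine, rose by 1.77, and Dpp4, the protease that cleaves incretins, fell by 0.73 (limma adjusted p 0.0210 and 0.0152). All 3 calls were lost with the slide row as a block, where 15 of all probes were called in that comparison. In STAM-INS 2 rose and 2 fell, beside 5.16% and 8.73%, and 1 rose and 1 fell with that block. Fgl1 rose by 2.36 and Enho, which encodes adropin, by 1.87, while Angptl6 fell by 0.66 (limma adjusted p 0.00750, 0.0289 and 0.0209). With spike-in centring 4 rose and 0 fell in STAM-INS, beside 1501 higher and 710 lower over all probes. Under insulin 0 of 17 passed by limma, beside 0.0913% of all probes, with Gpnmb at -1.69 and Tsku at -0.67 as the largest differences.

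**Figure D4:**
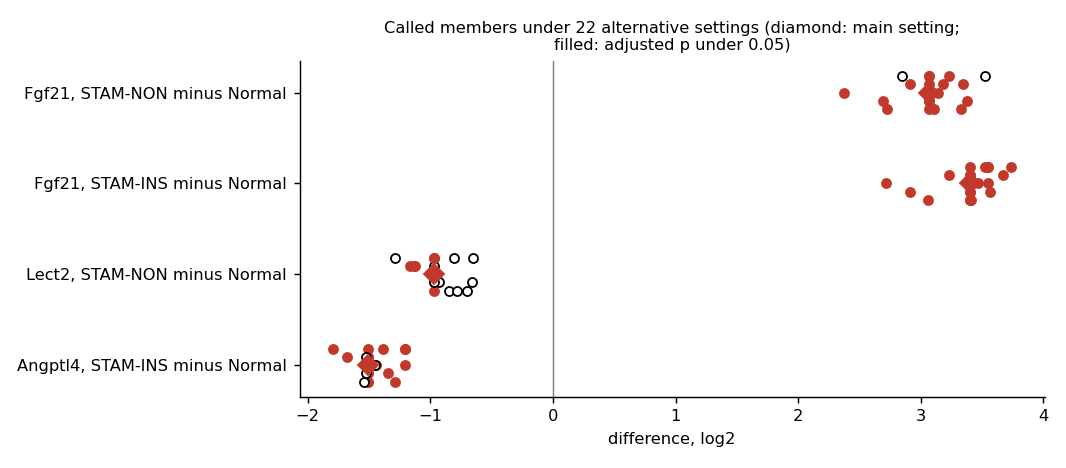
Difference between group means (x axis, log2) of the called genes (y axis) under the main setting (diamonds) and 22 alternatives (circles), filled where the limma adjusted p was under 0.05. Fgf21 stays between 2.37 and 3.73 and Angptl4 between -1.79 and -1.20, while Lect2 in STAM-NON minus Normal is filled in 9 of 22 alternatives.

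Over the 9 arrays, the genes with the profile most like that of Fgf21 were Cd40 and Serpina7, with Pearson's r of 0.97 and 0.95 among 12826 named genes. Prelid1 was among the closest to Angptl4 (r of 0.97), Apol7c and Prodh2 were the closest to Lect2 (0.98 for both), and Zcrb1 and Serpina1c to Ahsg (0.99 for both). Inhba was most like Cldn14 and Scara5 (0.98 and 0.97), Fetub like Slc10a2 and Gpc4 (0.98 for both), Inhbe like Eif2d and Tsfm (0.97 and 0.93), Angptl8 like Zbtb41 and Zw10 (0.94 for both), and Gdf15 like Ubap2 and Pbdc1 (0.94 and 0.92). These are the highest of many values over 9 points that share group differences, and they are given as a description. Among the 9 genes themselves, Inhba and Fetub had the highest r, 0.89, followed by Ahsg and Lect2 at 0.76 and Gdf15 and Inhbe at 0.74, while Fgf21 had -0.78 with Lect2 and -0.75 with Ahsg.

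Markers of other cells also differed between the groups. Sums of linear signal relative to each array's 75th percentile are given over each marker list. Such a sum follows the brightest probes and does not describe every marker of its list. In Normal, Dcn had a mean of 6.05 and the next stellate cell and fibroblast marker, Col1a2, 2.15. Of the 8 markers of that list, 7 had a higher mean in STAM-NON than in Normal and 1 a lower one, with a median difference of 1.06. Among the tested cholangiocyte markers Spp1 was the brightest. The hepatocyte sum was 4295 to 4585 in Normal, 3002 to 3931 in STAM-NON and 3639 to 4033 in STAM-INS, over 8 of 8 markers. The 7 macrophage markers on the array, of 8, summed to 63.6 to 97.1 in Normal, 113 to 213 in STAM-NON and 98.3 to 237 in STAM-INS. The 8 stellate cell and fibroblast markers summed to 72.9 to 82.9, 89.4 to 148 and 69.8 to 87.7, and the 5 cholangiocyte markers to 1.58 to 2.84, 3.68 to 9.21 and 3.49 to 5.41. The 6 endothelial markers summed to 31.1 to 36.2, 28.7 to 48.6 and 22.9 to 38.7, and the 7 lymphocyte markers to 7.90 to 8.79, 6.87 to 8.58 and 7.01 to 9.22. The 3 erythroid markers on the array summed to 96.1 to 107 in Normal, 52.9 to 356 in STAM-NON and 70.2 to 484 in STAM-INS. The 5 adipocyte markers summed to at most 0.66, 3.94 and 1.06, and in Normal 4 of the 5 were not well above background on any array. In the reported scaling, hepatocyte sums were thus lower and macrophage and cholangiocyte sums higher in all STAM arrays than in all Normal arrays. With spike-in centring 4 of the 8 hepatocyte markers had a higher mean in STAM-NON than in Normal and 4 a lower one. Their median difference was then -0.008, beside -0.32 in the reported scaling, so that the direction for hepatocyte markers depends on the scaling. In that scaling Ahsg, Lect2 and Angptl4 were also lower in all STAM arrays than in all Normal arrays, as was the hepatocyte sum. Fgf21 was higher in all STAM arrays, as were the macrophage and cholangiocyte sums. Such a separation from Normal is common, with no overlap for 41.2% of all probes in STAM-NON and 44.0% in STAM-INS. The part of cell composition in these differences was not tested.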

How the data were processed

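Liver RNA of 9 mice, 3 each of Normal, STAM-NON and STAM-INS, was labelled with 1 dye and hybridised to Agilent arrays of an mm9 design. As deposited, each array's file holds spot intensities, and per the file headers the processed intensity was background-subtracted and detrended by Agilent Feature Extraction 11.5.1.1, with no scaling between arrays. Log2 of that intensity was taken, and each array's 75th percentile over 59305 non-control spots was subtracted. Spots marked as outliers were left out and spots of 1 probe averaged. RefSeq accessions named 27656 of 55681 probes, with 20972 symbols. Tests were run on the 26277 probes with a value on all 9 arrays of which a share of 0.5 or more of the spots exceeded background clearly, by the scanner software's call, on all 3 arrays of any group. A gene with several probes was read from its brightest. All arrays were fitted together with limma 3.58.1 (lmFit and eBayes, R 4.3.3; 6 residual degrees of freedom), and p-values were adjusted by Benjamini-Hochberg over all tested probes at 0.05. The scripts were tested on simulated data. All 3 groups entered 1 fit to share an estimate of the spread, and the number of arrays limits the precision.

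The 9 genes and the pathway and marker lists were chosen with earlier results of these data known. Up to 3 genes past the threshold with the largest differences are named per list and comparison, or up to 2 where none passed. For each of the 9 genes, the 2 with the most similar profile are named, and 1 of these is not reported here. Normexp (offset 50) used the median spot signal, as the files hold no mean signal. Promoter windows of RefSeq (GRCm38.p6) were searched over the 250 bases before the start.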

Additional observations from a re-analysis of the deposited data

How the results depend on the processing

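Of the 9 genes, the number past the threshold in STAM-NON against Normal was 2 in the setting reported. It was 1 with the percentile over detected probes, with E1A spike-in centring, with quantile normalisation, with the arrays of the 2 groups only and with the replicate block. It was 0 with no filter on dim probes, with the slide row as a block, and without the 3 arrays with the most spots above background, an alternative chosen after seeing the data. In STAM-INS against Normal it was 2, with 3 when arrays were centred on the median and 1 with no filter. Leaving out 1 array at a time gave 1 to 2 in both of these comparisons, and STAM-INS against STAM-NON gave 0 of 9 in every limma alternative run. Without a filter more probes share the adjustment, and without arrays the fit has fewer samples. The other causes were not tested.

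Of the 27 differences of single genes, 22 passed in no setting and none that passed changed its sign. Lect2 in STAM-INS against Normal passed with centring on the median alone (-0.91, limma adjusted p 0.0412). Over all probes, 4220 were called in STAM-NON against Normal, and 250 with no filter, 2473 with the arrays of the 2 groups only, 2016 with the replicate block, 15 with the slide row as a block, 850 without the 3 arrays and 940 to 5817 leaving out 1 array. In STAM-INS against STAM-NON the count of 24 became 7 with no filter, 6 with probes well above background on all arrays, 8 with the arrays of the 2 groups only, 6 with the replicate block, 13 with the slide row, 567 without the 3 arrays and 10 to 105 leaving out 1. In STAM-INS against Normal the count of 3650 became 2211 with spike-in centring, 572 with no filter, 1872 with the replicate block, 2157 with the slide row and 1038 to 4326 leaving out 1. The labels give no pairing of mice by replicate number. Deviations of same-numbered arrays correlated between -0.29 and 0.15, and 1 of 3 correlated best with its own number in each comparison. With so few arrays a group, these values can neither show nor exclude a pairing. The row block is separated from group through the STAM-INS arrays alone. An average over several probes of a gene could not be run, as each of the 9 genes has 1 probe.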
